A study of Mus musculus with 24 samples.

Results

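The genes described here are those of glycolysis and the pentose phosphate pathway, 37 in all: the glucose transporters Slc2a1 and Slc2a3, the lactate and pyruvate transporters Slc16a1 and Slc16a3, the enzymes from hexokinase to lactate dehydrogenase, the kinases that regulate phosphofructokinase (Pfkfb2, Pfkfb3, Pfkfb4) and pyruvate dehydrogenase (Pdk1, Pdk2, Pdk3), and the enzymes that lead glucose 6-phosphate to ribose 5-phosphate. They were chosen by pathway membership, with earlier results of these data known. Of the 37 genes, 34 had a probe set that the probe table assigns to that gene alone, and all 34 were among the 14319 genes tested. Gpi1, Eno1 and G6pdx had no such probe set and were not analysed here, so glucose 6-phosphate isomerase, the main enolase gene and the first enzyme of the pentose phosphate pathway are missing from the account. Splenic B cells were purified with beads from C57BL/6 mice, described as 6 to 8 weeks old in most experiments. The group labelled KO came from mice whose Nfatc1 exon 3 lies between loxP sites and that express Cre from mb1 (Cd79a), a gene of the B cell receptor that is active from early B cell development on, so that the deletion is in B lineage cells and not in the rest of the mouse. The group labelled WT is the control; the labels do not say whether those mice carried Cre or the loxP allele. Cells of either genotype were analysed unstimulated (0 h) and after 3, 8 and 16 h of anti-IgM, which binds and clusters the receptor on the cell surface. Each of the 8 groups has 3 biological replicates, 24 arrays in all.

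Glycolysis splits glucose into pyruvate and yields ATP without oxygen, and cells that leave rest to grow usually raise it and export part of the pyruvate as lactate. The pentose phosphate pathway branches off at glucose 6-phosphate and supplies NADPH for biosynthesis and ribose 5-phosphate for nucleotides. Resting follicular B cells are small and use little glucose, and signalling through the B cell receptor is known to raise their glucose uptake and growth; many steps of the pathway are encoded by several genes, whose isoenzymes differ in tissue and regulation.

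Values are log2 signals from Affymetrix arrays, on which 1 unit is a doubling, and each gene is represented by its brightest probe set. A gene was called changed when limma's moderated test gave a Benjamini-Hochberg adjusted p under 0.05 over all 14319 genes. A signal counted as above the filter level when it was over its own array's 40th percentile, which lay between 5.375 and 6.425. Of the 34 genes, 30 were above that level on all 24 arrays, Hk3 on 21, Eno2 on 17, Pdk2 on 14 and Slc16a3 on 5. The number of arrays, not a count, limits the precision.

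The arrays labelled KO did not show less Nfatc1 signal: its brightest probe set was higher in KO than in WT by 0.56 on average (SE 0.0628, limma adjusted p = 1.12e-05), with no overlap at any of the 4 times, and the 4 other Nfatc1 probe sets differed by 0.11 to 0.24. The position of those probes with respect to exon 3 is not given in the sources used here, so the label was not checked by them, and every genotype difference below is between arrays labelled KO and arrays labelled WT. The 4 WT arrays of replicate 2 showed male-type expression and the other 20 did not, so sex moved with replicate 2 within WT. The difference between the 3′ and 5′ Gapdh control probe sets, a sign of RNA integrity, was −0.68 to −0.61 on the WT 0 h arrays and −0.37 to −0.32 on the WT 16 h arrays. It was −0.62 to −0.22 on the KO 0 h arrays and −0.48 to −0.29 on the KO 16 h arrays. Among markers of other cells, the summed T cell level in WT was 8.82 to 9.39 at 0 h, 11.10 to 11.47 at 3 h and 8.88 to 8.95 at 16 h, with Cd4, Cd8b1, Lck and Trbc1 not past the filter. Of its 6 measured genes Il7r (3.52) and Cd28 (0.94) were called higher at 3 h, while Cd3e (−1.70), Cd3d (−1.90), Cd3g (1.59) and Cd8a (0.14) were not called. The macrophage and monocyte level was 12.26 to 13.56 at 0 h and 11.19 to 12.16 at 16 h. NK cell markers (7 of 8 past the filter) summed to 9.66 to 10.63 at WT 0 h and 8.22 to 8.72 at 16 h, neutrophil markers (8 of 10) to 11.49 to 12.11 and 10.02 to 10.29, platelet markers (6 of 6) to 9.81 to 10.23 and 9.01 to 9.46, and erythroid markers (4 of 10, without the hemoglobin genes and with Tfrc the brightest) to 11.11 to 11.71 and 13.15 to 13.48. The summed level of 7 B cell markers was 17.00 to 17.17 at 0 h and 15.64 to 15.82 at 16 h. The part of cell composition, RNA integrity and sex in the results below was not tested, and in bulk RNA fewer cells of a type cannot be told apart from less RNA per cell.

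After stimulation most of these genes changed, and the median rise grew with time. In WT cells 12 of the 34 genes were called higher and 8 lower at 3 h, 17 higher and 4 lower at 8 h, and 18 higher and 3 lower at 16 h, each against the same 0 h arrays. Over all genes tested the background was 38.3% called at 3 h (17.0% higher, 21.3% lower), 33.4% at 8 h (17.7% higher, 15.7% lower) and 39.4% at 16 h (20.9% higher, 18.5% lower). The median difference from 0 h over the 34 genes was 0.04, 0.44 and 0.73 at the 3 times, beside −0.14, −0.04 and 0.05 over all genes. The deposited scaling weighs on the 3 h values: scaling each array to its median moved the all-gene median by 0.239, gave 14 higher and 5 lower members in place of 12 and 8, and moved the share of higher among all called genes from 44.5% to 60.3%. At 8 h the same scaling moved that share from 53.1% to 64.0% and the all-gene median by 0.158. No called member changed direction under another scaling.

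**Figure D1:**
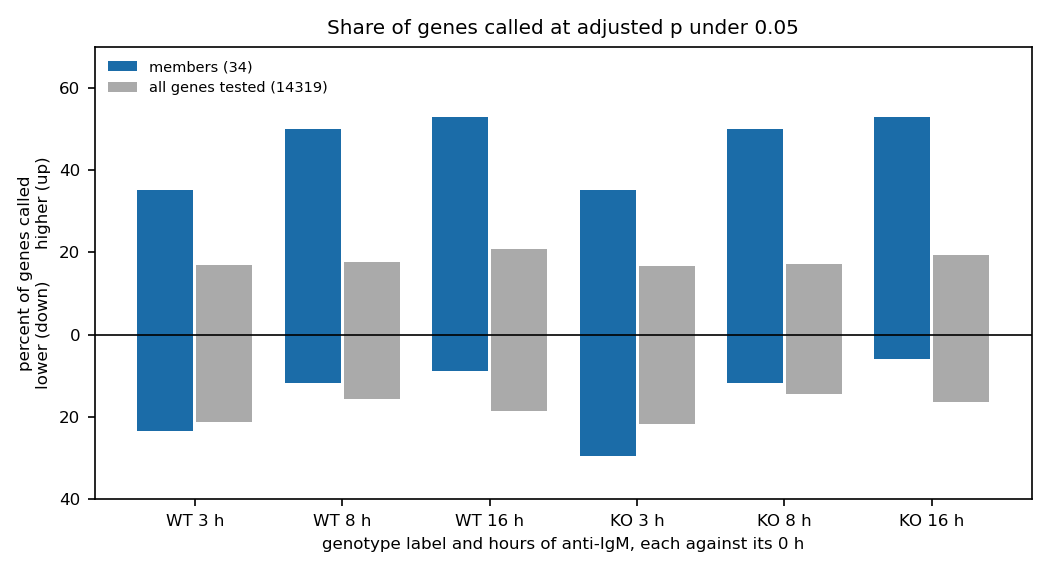
Percent of genes called higher or lower (vertical axis) after 3, 8 and 16 h of anti-IgM against 0 h, in WT and in KO, for the 34 glycolysis and pentose phosphate genes and for all 14319 genes tested. In WT at 16 h, 18 of the 34 were higher beside a background of 20.9%, and 3 were lower beside 18.5%.

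By course, 12 genes were higher at all 3 times in WT: Hk2, Pfkp, Aldoa, Tpi1, Pgk1, Pgam1, Eno2, Pkm, Ldha, Slc16a1, Pgd and Tkt. Another 5, Pfkl, Gapdh, Eno3, Pdk3 and Pgls, were higher at 8 and 16 h but not called at 3 h, and Rpia was called higher at 16 h alone. Slc2a3, Pfkfb4 and Pdk1 were lower at all 3 times, Hk1 at 3 and 8 h, and Aldoc, Pdk2, Taldo1 and Bpgm at 3 h alone. The remaining 8, Hk3, Pfkm, Ldhb, Slc2a1, Slc16a3, Pfkfb2, Pfkfb3 and Rpe, were not called at any time. How large a share of all genes took each of these courses was not computed. The 12 genes higher at all times include a gene each for hexokinase, phosphofructokinase, aldolase, triose phosphate isomerase, and phosphoglycerate kinase and mutase. They also include a gene each for enolase, pyruvate kinase, lactate dehydrogenase and lactate transport, and a pair from the pentose phosphate pathway. The enolase is Eno2, which was under the filter level on every 0 h array and passed the filter only through stimulated arrays. Its WT 16 h call was lost when signals under the level were raised to it.

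**Figure D2:**
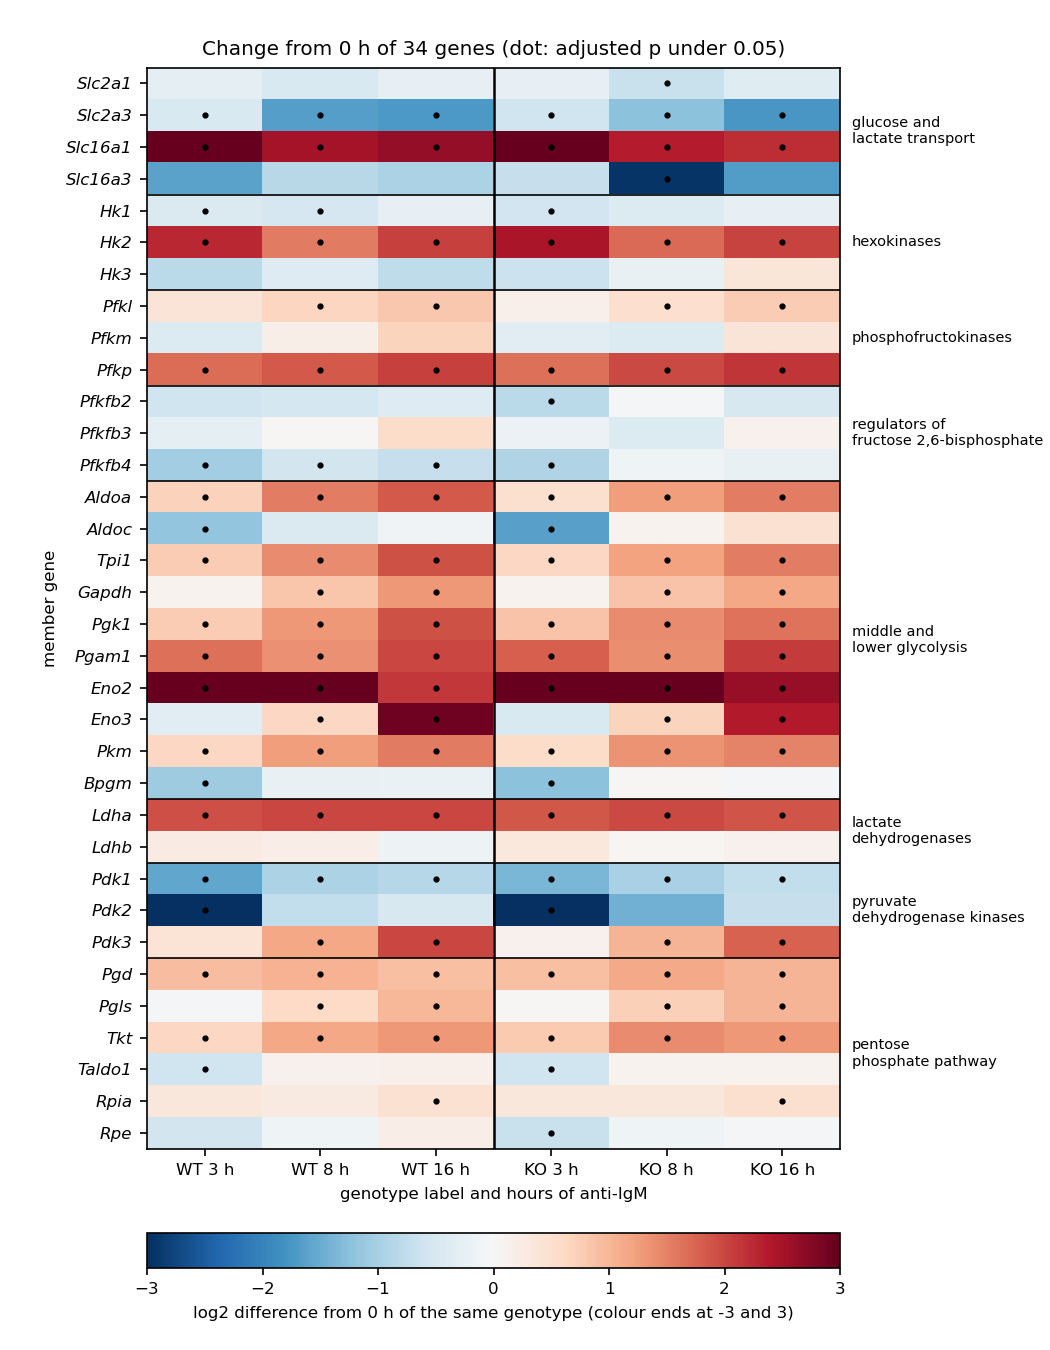
Differences in log2 signal from the 0 h arrays of the same genotype for the 34 genes (rows, ordered by role) at 3, 8 and 16 h in WT and KO (columns); red is higher, blue lower, the colour scale ends at −3 and 3, and a dot marks an adjusted p under 0.05. In all columns 12 genes are marked higher and Slc2a3 and Pdk1 lower; Eno2 at 0 h, Pdk2 at 3 h and Slc16a3 at most times were below the filter level, so their colours are not measured sizes.

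Promoter sequences of the members were searched for the E-box CACGTG, the element bound by Myc and related factors, and for ACGTG, the core of the hypoxia response element, since both kinds of factor are known regulators of glycolytic genes. The sequences are RefSeq's for GRCm38.p6, 250 bases before to 50 after the transcription start; 36 of the 37 genes matched (53 windows, none for Slc2a3), and both strands were searched. CACGTG was in 6 of the 53 windows (11.3%), beside 7.15% of all 32851 windows: those of Ldha, Slc16a1, Pdk2, Pfkfb2, Pfkfb3 and Pfkm. Of these 6 genes, Ldha and Slc16a1 rose at 3 h, Pdk2 fell and the other 3 were not called. ACGTG, which also lies inside CACGTG, was in 23 of the 53 windows (43.4%), beside 19.6% of all windows. GCGTG, the other form of that core, was in 30 (56.6%, beside 32.4%), and GGAAAA, an NFAT-like core, in 10 (18.9%, beside 23.4%). The stretches below are examples that hold the E-box or the ACGTG core and come from genes called at 3 h. For ACGTG without an E-box, Hk2, Pgk1 and Pgam1, all higher at 3 h, were picked. Aldoa and Pkm, higher at 3 h, and Aldoc and Hk1, lower at 3 h, also hold ACGTG and are not shown. Capitals mark every CACGTG and ACGTG in the stretches as it reads on the gene's strand (CACGT is ACGTG on the other strand). The position given is that of the first capital run of a stretch. A match describes letters in the window and was not tested as a binding site.
Ldha, 145 bases before the start, chr7:46845632-46845691, plus strand: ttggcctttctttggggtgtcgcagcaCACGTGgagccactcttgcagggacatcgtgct
Ldha, 48 bases before, chr7:46845729-46845788, plus strand: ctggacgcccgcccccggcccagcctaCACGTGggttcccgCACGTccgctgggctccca
Slc16a1, 200 bases before, chr3:104638437-104638496, plus strand: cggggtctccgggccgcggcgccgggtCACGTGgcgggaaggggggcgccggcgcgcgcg
Pdk2, 126 bases before, chr11:95041465-95041524, minus strand: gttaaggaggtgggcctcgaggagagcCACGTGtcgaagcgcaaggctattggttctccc
Hk2, 52 bases before, chr6:82774474-82774533, minus strand: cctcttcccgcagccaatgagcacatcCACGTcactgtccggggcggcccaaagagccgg
Pgk1, 150 bases before, chrX:106186923-106186982, plus strand: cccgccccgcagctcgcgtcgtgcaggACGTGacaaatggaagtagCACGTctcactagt
Pgam1, 114 bases before, chr19:41911730-41911789, plus strand: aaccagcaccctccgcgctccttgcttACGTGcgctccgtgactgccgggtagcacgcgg

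Of the 4 transporters, the lactate exporter rose most and the glucose transporter Slc2a3 fell. Slc16a1 encodes MCT1, which carries lactate and pyruvate with protons across the plasma membrane. Its log2 signal on the WT arrays was 9.42, 8.80 and 9.52 at 0 h, 12.56, 12.45 and 12.87 at 3 h, 11.31, 11.96 and 11.93 at 8 h, and 11.54, 11.76 and 12.37 at 16 h. Every stimulated array lay above every 0 h array. The rise was 3.38 at 3 h (10.4-fold, SE 0.327, limma adjusted p = 1.23e-08), 2.49 at 8 h (5.61-fold) and 2.64 at 16 h (6.24-fold). A second, dim probe set of the gene pulled the mean of both below the threshold at 8 h.

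Slc2a3 encodes GLUT3, a glucose transporter of high affinity. Its signal in WT was 10.99, 10.96 and 10.77 at 0 h, 10.37, 10.57 and 10.39 at 3 h, 8.73, 9.65 and 9.37 at 8 h, and 9.34, 9.18 and 9.04 at 16 h. The 0 h arrays were the highest and did not overlap with any later group. It fell by 0.46 at 3 h (SE 0.161, adjusted p = 0.0254), by 1.66 at 8 h (3.15-fold lower, adjusted p = 1.7e-08) and by 1.72 at 16 h (3.30-fold lower, adjusted p = 5.6e-09). The call at 3 h was lost without WT 0 h replicate 1 or 2 or WT 3 h replicate 1 or 3 (adjusted p 0.0718 to 0.0839), and when each array was scaled to its median.

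The other glucose transporter, Slc2a1 (GLUT1), is known as the main glucose transporter of activated lymphocytes. Its WT signal was 10.63, 10.84 and 10.83 at 0 h and 10.27, 10.64 and 10.62 at 3 h, then 10.01, 10.30 and 10.65 at 8 h and 10.10, 10.38 and 11.05 at 16 h. The groups overlapped, and its differences of −0.26, −0.45 and −0.25 (SE 0.228) did not pass the test. Slc16a3 encodes MCT4, the lactate exporter of strongly glycolytic cells; it was above the filter level on 5 of 24 arrays, and no fold is given for it. Neither glucose transporter measured here was therefore called higher at any time, while 1 lactate transporter was.

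Hexokinase phosphorylates glucose and so traps it in the cell. Hk2, the inducible form, read 8.17, 8.94 and 8.23 at 0 h in WT, 10.67, 10.77 and 10.66 at 3 h, 9.73, 10.34 and 9.94 at 8 h, and 10.30, 10.40 and 10.81 at 16 h. No stimulated array overlapped with 0 h. It rose by 2.25 at 3 h (4.76-fold, SE 0.199, adjusted p = 3.21e-09), 1.56 at 8 h and 2.06 at 16 h. From 3 to 8 h it fell by 0.69 (adjusted p = 0.0197), a call lost under median scaling.

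Hk1, the form most cells carry at rest, read 9.56, 9.83 and 9.69 at 0 h, 9.46, 9.28 and 9.04 at 3 h, 9.31, 9.06 and 9.22 at 8 h, and 9.60, 9.38 and 9.36 at 16 h. The 3 h and 8 h arrays lay below those of 0 h, and 1 array of 16 h reached among them. It fell by 0.44 at 3 h (SE 0.163, adjusted p = 0.0373) and by 0.50 at 8 h (adjusted p = 0.0202), and its difference of −0.25 at 16 h did not pass the test. The 3 h call was lost without WT 0 h replicate 2 or 3 or WT 3 h replicate 2 or 3 (adjusted p 0.0681 to 0.177), the 8 h call without WT 0 h or 8 h replicate 2 (0.0868 and 0.0871), and both under median scaling or quantile normalization. A dimmer second Hk1 probe set differed by −0.996, −1.017 and −0.887 at 3, 8 and 16 h. With limma on every probe set it was called lower at each time, 16 h included (adjusted p = 0.00253, 0.00245 and 0.00598). The size and length of the fall thus depend on the probe set. Hk3, a form of myeloid cells, ranged from 5.04 to 7.88 on the WT 0 h arrays, and its differences of −0.80, −0.38 and −0.76 (SE 0.543) did not pass the test.

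Phosphofructokinase commits the sugar to glycolysis. Pfkp, its platelet-type subunit, read 10.40, 10.40 and 10.36 at 0 h, 12.22, 12.13 and 11.87 at 3 h, 12.21, 12.36 and 12.08 at 8 h, and 12.11, 12.41 and 12.76 at 16 h in WT. The stimulated arrays all lay above the 0 h arrays. The rise of 1.68 (3.21-fold, SE 0.156, adjusted p = 6.49e-09) at 3 h was followed by differences of 1.83 at 8 h and 2.04 at 16 h; its other 2 probe sets also rose.

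The liver-type subunit Pfkl read 9.37, 9.40 and 8.80 at 0 h, 9.88, 9.90 and 9.73 at 8 h, and 10.09, 9.91 and 9.98 at 16 h, without overlap. It rose by 0.64 at 8 h (SE 0.172, adjusted p = 0.00462) and 0.80 at 16 h (adjusted p = 0.000496), while its difference of 0.38 at 3 h was not called. Its probe sets disagreed: a dimmer one changed by −0.78, −1.13 and −1.15 at the 3 times, so the gene's direction depends on the probe set, and without WT 0 h replicate 3 the 8 h call was lost (adjusted p = 0.0521). The muscle-type subunit Pfkm differed by −0.40, 0.18 and 0.67 (SE 0.311), none of which passed the test.

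The 3 Pfkfb genes make and remove fructose 2,6-bisphosphate, the strongest activator of phosphofructokinase, and 1 of them was called. Pfkfb4 read 8.86, 9.49 and 9.05 at 0 h, 8.23, 7.68 and 8.36 at 3 h, 8.64, 8.50 and 8.62 at 8 h, and 8.28, 8.56 and 8.48 at 16 h in WT. All stimulated arrays lay below 0 h. It fell by 1.04 at 3 h (SE 0.204, adjusted p = 0.000212), 0.55 at 8 h (adjusted p = 0.0427) and 0.69 at 16 h (adjusted p = 0.00821). The 8 h call was lost without any of the WT 8 h arrays or WT 0 h replicate 2 or 3 (adjusted p 0.0603 to 0.243), and the 16 h call without WT 0 h replicate 2 (0.0731). Pfkfb2 differed by −0.59, −0.53 and −0.39 and Pfkfb3 by −0.27, 0.04 and 0.55 in WT, none of them called.

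In the middle and lower part of the pathway, from aldolase to pyruvate kinase, 6 of 10 genes were higher and 2 lower at 3 h in WT. At 8 and at 16 h 8 were higher and none lower. Over all genes 17.0% were higher and 21.3% lower at 3 h, so the 2 lower genes are near that share. The all-gene shares were 17.7% and 15.7% at 8 h, and 20.9% and 18.5% at 16 h. The median difference of the 10 genes went from 0.64 to 1.27 and 1.86. Gapdh, the dehydrogenase that makes the first NADH of glycolysis, was not called at 3 h on the probe set used here and then rose. Its 5′ control probe set read 13.81, 13.77 and 13.76 at 0 h, 13.98, 13.84 and 13.84 at 3 h, 14.71, 14.48 and 14.68 at 8 h, and 15.10, 15.23 and 14.92 at 16 h in WT. The 0 h and 3 h arrays lay close together, and the 8 h and 16 h arrays stood clear of them. The difference was 0.11 at 3 h (SE 0.0966, adjusted p = 0.44), 0.84 at 8 h (adjusted p = 2.11e-07) and 1.30 at 16 h (2.46-fold, adjusted p = 1.47e-10). The 3′ probe set differed by 0.293, 1.066 and 1.597 and the middle one by 0.131, 0.976 and 1.551, so a gene often taken as a constant reference more than doubled on each of the 3 probe sets by 16 h. With limma on every probe set, the 3′ one was called higher at 3 h (adjusted p = 0.0442) and the middle one was not (0.335).

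Pgk1, which makes the first ATP of the pathway, rose stepwise. It read 12.17, 12.11 and 12.11 at 0 h, 12.78, 12.86 and 13.00 at 3 h, 13.35, 13.29 and 13.62 at 8 h, and 13.87, 14.06 and 14.14 at 16 h in WT. No 2 times overlapped. The rise was 0.75 (SE 0.11, adjusted p = 5.41e-06), 1.29 and 1.90 (3.73-fold, adjusted p = 3.87e-12). Pgk1 lies on the X chromosome; without the 4 male-type arrays it was 0.75, 1.34 and 1.87.

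Aldoa, the aldolase of muscle and of most growing cells, rose in the same stepwise way, by 0.68, 1.53 and 1.83 (SE 0.151), from 11.67 to 11.79 at 0 h to 13.35 to 13.71 at 16 h. A dimmer Aldoa probe set, above the filter level on all 24 arrays, differed by −0.079, 0.055 and 0.34. With limma on every probe set it was called higher at 16 h alone (adjusted p = 0.0278). The remaining Aldoa probe sets rose at each time, so the size and timing of the rise depend on the probe set. Tpi1, triose phosphate isomerase, rose by 0.75, 1.41 and 1.92 (SE 0.157), from 10.23 to 10.47 at 0 h to 12.15 to 12.53 at 16 h. Pkm, pyruvate kinase, rose by 0.61, 1.25 and 1.55 (SE 0.127), from 10.99 to 11.37 at 0 h to 12.74 to 12.81 at 16 h. In none of these 3 did a stimulated array overlap with 0 h.

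Pgam1, phosphoglycerate mutase, stood well above its 0 h level as early as 3 h. It read 11.00, 10.92 and 10.64 at 0 h, 12.60, 12.61 and 12.30 at 3 h, 12.12, 12.42 and 12.14 at 8 h, and 12.73, 13.02 and 12.85 at 16 h in WT. The stimulated arrays stood clear of 0 h. The rise was 1.65 at 3 h (SE 0.127, adjusted p = 3.72e-10), 1.37 at 8 h and 2.01 at 16 h (4.04-fold, adjusted p = 1.29e-11).

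**Figure D3:**
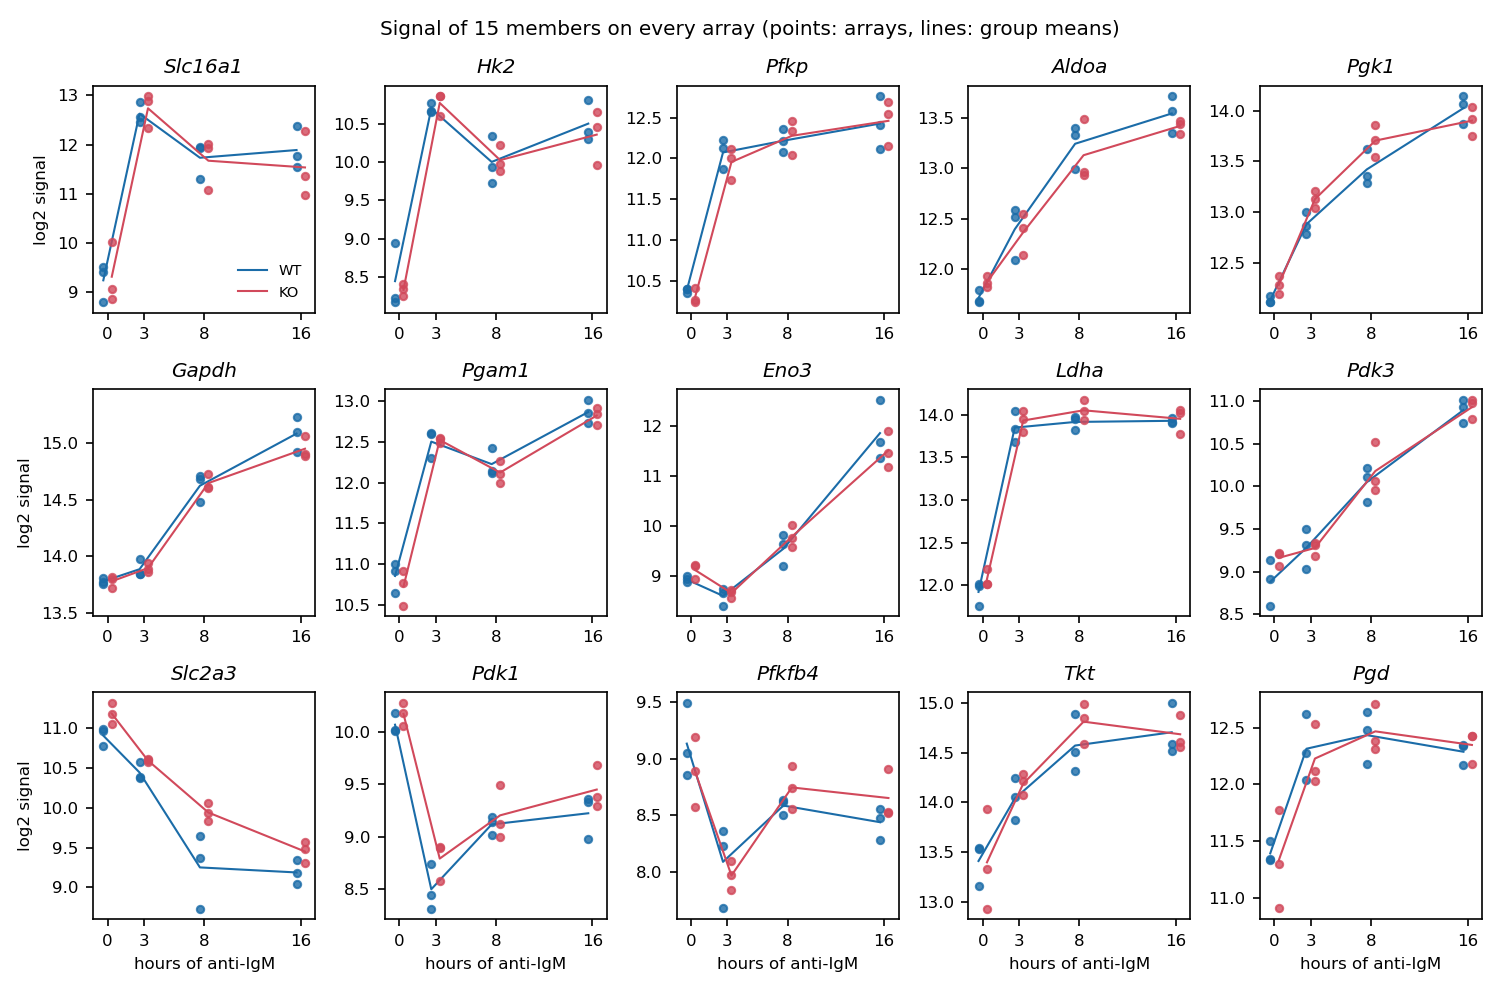
Log2 signal (vertical axis) on each of the 24 arrays (points; blue WT, red KO) at 0, 3, 8 and 16 h (horizontal axis) for 15 genes, with lines through the group means of 3 arrays. Slc16a1, Hk2 and Ldha stand highest or near their highest at 3 h, Gapdh (5′ control probe set) and Eno3 climb mainly after 3 h, and Slc2a3 and Pdk1 fall.

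The enolases measured here took different courses in time. Eno2, the neuronal form, was below the filter level on all 3 WT 0 h arrays (3.55, 3.09 and 5.28) and read 8.21, 8.20 and 7.93 at 3 h, 6.54, 7.74 and 6.89 at 8 h, and 6.92, 5.0 and 6.35 at 16 h. The 3 h arrays were the highest, and at 16 h 2 of 3 arrays were above the level. Against the filter level it was at least 4.96-fold higher at 3 h (adjusted p = 3.87e-06), at least 2.38-fold at 8 h and at least 1.21-fold at 16 h, where 1 array overlapped with 0 h. The 16 h call was lost when signals under the level were raised to it and when only the compared groups entered the fit.

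Eno3, the muscle form, read 8.88, 8.94 and 9.0 at 0 h, 8.75, 8.67 and 8.42 at 3 h, 9.64, 9.20 and 9.82 at 8 h, and 11.68, 12.53 and 11.37 at 16 h in WT. The 16 h arrays stood far above all others. The difference was −0.33 at 3 h (SE 0.222, adjusted p = 0.28), 0.61 at 8 h (adjusted p = 0.0359) and 2.92 at 16 h (7.56-fold, adjusted p = 2.22e-10), and from 8 to 16 h alone it rose by 2.30 (adjusted p = 3.84e-07). The 8 h call was lost without any of the WT 0 h arrays or without WT 8 h replicate 1 or 3 (adjusted p 0.0586 to 0.156).

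Aldoc and Bpgm were the 2 genes of this stretch that fell at 3 h. Aldoc, the brain-type aldolase, read 8.27, 8.21 and 8.34 at 0 h, 6.93, 7.31 and 7.03 at 3 h, 7.45, 7.65 and 8.44 at 8 h, and 8.00, 8.35 and 8.18 at 16 h in WT. The 3 h arrays were the lowest and the 16 h arrays were back among those of 0 h. It fell by 1.19 at 3 h (2.28-fold lower, SE 0.267, adjusted p = 0.000896), a call that was lost in the mean with its dim second probe set. Bpgm, which diverts a glycolytic intermediate to 2,3-bisphosphoglycerate, read 8.64, 8.77 and 8.65 at 0 h and 7.70, 7.37 and 7.82 at 3 h, without overlap, and fell by 1.06 (SE 0.179, adjusted p = 3.71e-05). At 8 and 16 h its differences of −0.23 and −0.19 were not called.

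Lactate dehydrogenase turns pyruvate into lactate and restores NAD. Ldha, the subunit that favours lactate formation, read 11.99, 11.76 and 12.01 at 0 h, 14.04, 13.68 and 13.83 at 3 h, 13.98, 13.95 and 13.82 at 8 h, and 13.91, 13.92 and 13.96 at 16 h in WT. The 9 stimulated arrays formed 1 narrow band well above the 0 h arrays. The rise was 1.93 (3.81-fold, SE 0.11, adjusted p = 6.73e-12), 2.00 (3.99-fold) and 2.01 (4.03-fold). Ldhb, the subunit of oxidative tissues, read 7.69, 8.13 and 7.51 at 0 h and 8.04, 7.86 and 8.16 at 3 h, overlapping. On this brightest probe set its differences of 0.24, 0.20 and −0.15 (SE 0.293) did not pass the test. A dim Ldhb probe set was above the filter level on 12 arrays and another on 11. With limma on every probe set, the former was called lower at WT 8 and 16 h (adjusted p = 0.00857 and 0.0426). The latter was called lower at WT 16 h alone (0.0332). Their means there lay under every array's filter level, so the size of these falls was not measured. Whether Ldhb was called thus depends on the probe set.

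The 3 pyruvate dehydrogenase kinases, which switch off the entry of pyruvate into the citric acid cycle, moved apart. Pdk1 read 10.02, 10.18 and 10.01 at 0 h, 8.31, 8.74 and 8.44 at 3 h, 9.14, 9.02 and 9.19 at 8 h, and 9.36, 9.33 and 8.98 at 16 h in WT. All stimulated arrays lay below 0 h, and the 3 h arrays were the lowest. It fell by 1.57 (2.97-fold lower, SE 0.159, adjusted p = 2.49e-08), 0.95 and 0.85 (adjusted p = 0.000119).

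Pdk3 went the other way. It read 8.91, 8.60 and 9.13 at 0 h, 9.03, 9.50 and 9.31 at 3 h, 10.11, 9.82 and 10.22 at 8 h, and 10.74, 11.02 and 10.93 at 16 h in WT. The 3 h arrays overlapped with 0 h and the later ones did not. The difference was 0.40 at 3 h (SE 0.161, adjusted p = 0.0548), 1.17 at 8 h (adjusted p = 3.14e-06) and 2.01 at 16 h (4.03-fold, adjusted p = 4.79e-10). Pdk3 is X-linked, and without the male-type arrays it was 1.14 and 1.81 at 8 and 16 h. Pdk2 read 6.75, 7.09 and 6.28 at 0 h and 2.81, 3.02 and 5.24 at 3 h, where no array was above the filter level, so it was at least 2.16-fold lower there (adjusted p = 0.00151). At 8 and 16 h it read 5.59 to 6.41 and 6.20 to 6.22, and was not called.

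**Figure D4:**
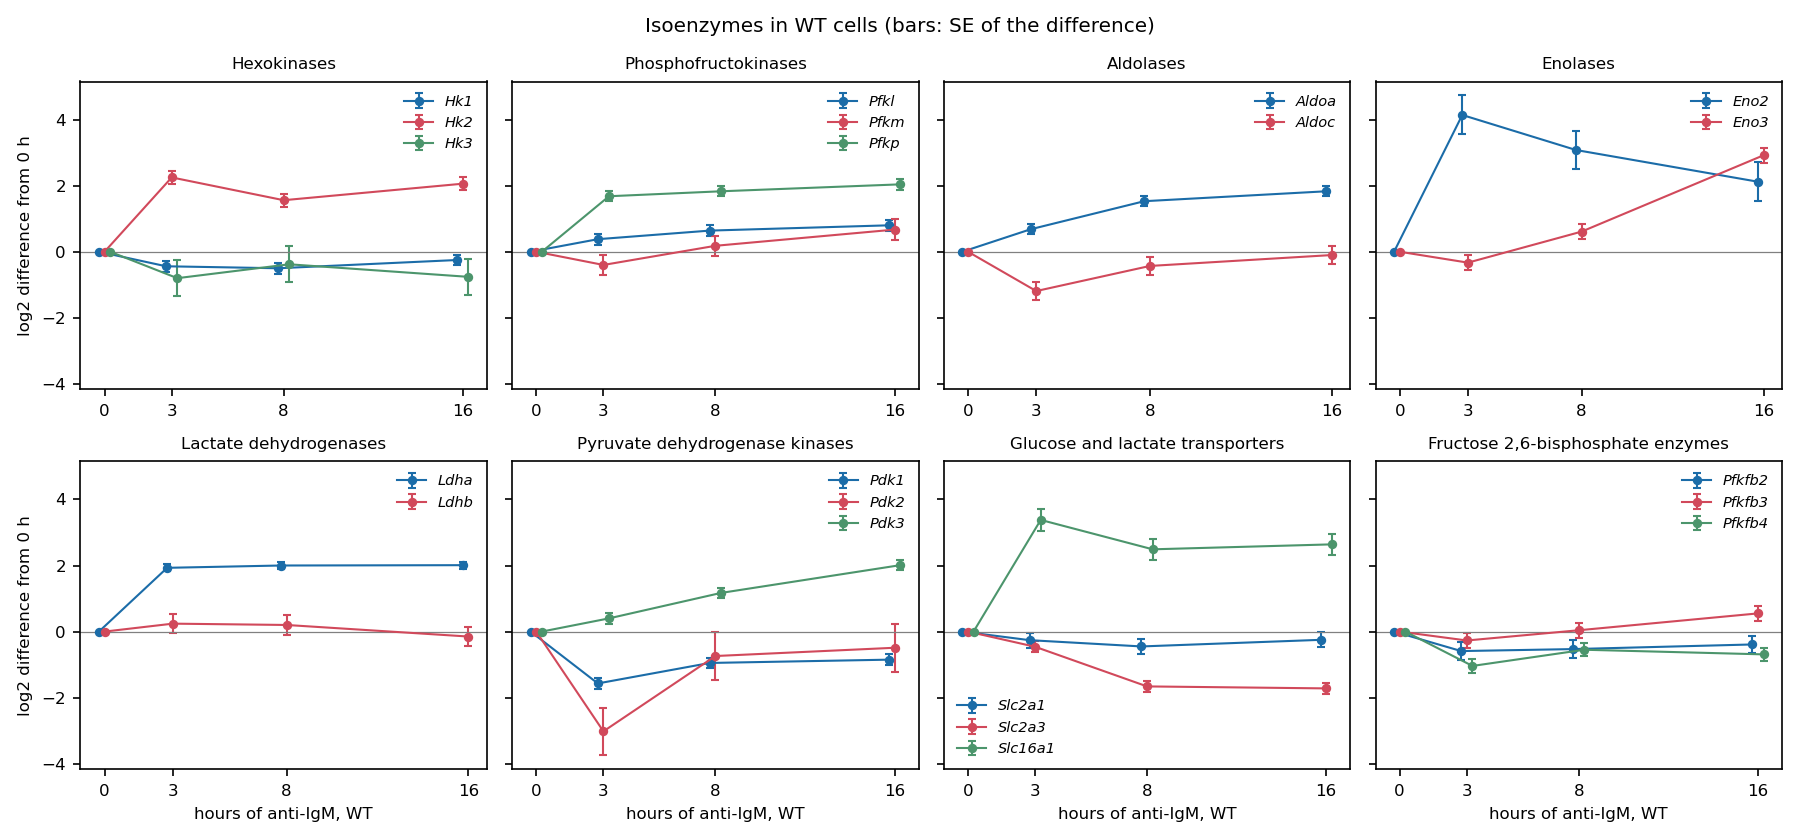
Differences in log2 signal from WT 0 h (vertical axis, points with SE bars from the fit) at 3, 8 and 16 h for the members of 8 families of isoenzymes or transporters, 1 panel per family. Hk2 rises beside Hk1, Pfkp and, less, Pfkl rise beside Pfkm, Eno2 is highest at 3 h and Eno3 at 16 h, Ldha rises beside Ldhb, and Pdk1 and Pdk3 go opposite ways; Eno2 at 0 h and Pdk2 at 3 h were below the filter level, so the sizes drawn for those differences are not measured ones.

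In the pentose phosphate pathway, 2 of the 6 genes measured were higher and 1 lower at 3 h in WT. At 8 h 3 were higher and at 16 h 4, with none lower at those times. Over all genes 17.0% were higher and 21.3% lower at 3 h, 17.7% and 15.7% at 8 h, and 20.9% and 18.5% at 16 h. Pgd, the second NADPH-forming enzyme of the oxidative branch, read 11.50, 11.33 and 11.34 at 0 h, 12.62, 12.28 and 12.04 at 3 h, 12.48, 12.64 and 12.18 at 8 h, and 12.34, 12.17 and 12.35 at 16 h. It did not overlap with 0 h at any time. It rose by 0.92, 1.04 and 0.90 (SE 0.182, adjusted p = 0.000228, 6.51e-05 and 0.000279). Pgls, the lactonase between the 2 dehydrogenases, differed by −0.03 at 3 h and rose by 0.60 at 8 h and 0.99 at 16 h (SE 0.128, adjusted p = 7.62e-07), to 11.88 to 12.17 at 16 h from 11.01 to 11.10 at 0 h.

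In the branch that shuffles sugars back to glycolysis, Tkt (transketolase) rose and Taldo1 (transaldolase) did not. Tkt read 13.54, 13.16 and 13.53 at 0 h, 14.24, 13.82 and 14.05 at 3 h, 14.89, 14.31 and 14.51 at 8 h, and 15.00, 14.59 and 14.52 at 16 h in WT. The stimulated arrays lay above 0 h. It rose by 0.62 at 3 h (SE 0.198, adjusted p = 0.0145), 1.16 at 8 h and 1.29 at 16 h (2.45-fold, adjusted p = 9.26e-06). The 3 h call was lost without WT 3 h replicate 1 or WT 0 h replicate 2 (adjusted p 0.0750 to 0.0885) and without the male-type arrays. A bright Tkt probe set also rose, by 0.997, 1.742 and 1.675. A dim one differed by 0.864, 0.196 and 0.009, and with limma on every probe set was called at 3 h alone (adjusted p = 0.00772).

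Taldo1 read 12.33, 12.15 and 12.37 at 0 h, 11.78, 11.69 and 11.59 at 3 h and 12.30, 12.37 and 12.55 at 8 h in WT. It fell by 0.59 at 3 h (SE 0.11, adjusted p = 0.000116), a call lost under median scaling, and at 8 and 16 h its arrays overlapped with 0 h, with differences of 0.12 and 0.16 that were not called. Rpia, which makes ribose 5-phosphate, differed by 0.33 and 0.28 and rose by 0.46 at 16 h (SE 0.17, adjusted p = 0.0341). That call was lost without WT 0 h replicate 1 or 3 or WT 16 h replicate 1 or 2 (adjusted p 0.0545 to 0.122). Rpe, the epimerase of the same branch, differed by −0.54, −0.13 and 0.21 and was not called.

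Between neighbouring times the changes after 3 h were mostly rises. From 3 to 8 h in WT, 12 of the 34 genes rose and 2 fell, beside 15.9% of all genes called (10.3% higher, 5.57% lower), and the median over the 34 was 0.46 beside 0.10. The 12 were Gapdh, Pgk1, Aldoa, Tpi1, Pkm, Eno3, Bpgm, Pgls, Taldo1, Pdk1, Pdk2 and Pdk3, and the 2 that fell were Slc2a3 and Hk2. Slc16a1 differed by −0.89 without passing the test (adjusted p = 0.0665). From 8 to 16 h, 6 genes rose (Gapdh, Pgk1, Pgam1, Tpi1, Eno3, Pdk3) and none fell, beside 7.75% called (3.83% higher, 3.92% lower). Scaling each array to its median left 4 and 1 calls at these 2 steps, and moved the share of higher among all called genes from 65.0% to 51.6% and from 49.5% to 31.2%. Without the male-type arrays 3 genes were called from 8 to 16 h. The call of Tpi1 from 8 to 16 h was lost without any 1 of 11 arrays (WT 0 h replicates 2 and 3, the WT 8 h arrays, WT 16 h replicates 2 and 3, KO 0 h replicate 2 and the KO 3 h arrays; adjusted p 0.0509 to 0.237). From 3 to 8 h, calls were lost for Hk2 without WT 8 h replicate 1 or 3 or WT 3 h replicate 2 (0.0676 to 0.12), for Pdk2 without WT 3 h replicate 1 or 2 or WT 8 h replicate 1 or 3 (0.0811 to 0.134), for Pdk1 without WT 3 h replicate 1 (0.0506) and for Tpi1 without WT 3 h replicate 2 (0.0587).

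The KO arrays gave similar counts. At 3 h 12 of the 34 genes were higher and 10 lower than at KO 0 h, beside 38.3% of all genes called (16.6% higher, 21.7% lower). At 8 h 17 were higher and 4 lower, beside 31.7% (17.3% higher, 14.4% lower), and at 16 h 18 were higher and 2 lower, beside 35.9% (19.5% higher, 16.4% lower). The median over the 34 was 0.08, 0.43 and 0.62, beside −0.11, 0.02 and 0.08 over all genes. The same 12 genes as in WT were higher at all 3 times, and the same 5 from 8 h on.

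Slc16a1 in KO read 8.86, 9.08 and 10.02 at 0 h and 12.89, 12.34 and 12.98 at 3 h, without overlap, and rose by 3.42, 2.35 and 2.22. Hk2 read 8.41, 8.25 and 8.34 at 0 h and 10.86, 10.60 and 10.86 at 3 h, and rose by 2.44, 1.70 and 2.02. Ldha read 12.19, 12.01 and 12.01 at 0 h and 14.05, 13.80 and 13.95 at 3 h, and rose by 1.87, 1.98 and 1.88. For none of these 3 genes did the test of genotype by time make a call.

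Eno3 in KO was again late, at 9.22, 9.21 and 8.95 at 0 h, 10.03, 9.58 and 9.77 at 8 h and 11.47, 11.90 and 11.18 at 16 h, with differences of −0.46 at 3 h, not called, and rises of 0.67 and 2.39. Eno2 was at least 6.54-fold higher at 3 h, 3.89-fold at 8 h and 2.03-fold at 16 h. Pdk1 fell (−1.38, −0.97 and −0.73), and Pdk3 differed by 0.12 at 3 h and rose by 1.02 and 1.77 later.

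The calls of 28 of the 34 genes had the same pattern over the 3 times in both genotypes, and no gene was called in opposite directions. The same share over all genes was not computed, so this agreement is not shown to be particular to these genes. The other 6 were Hk1 and Pfkfb4 (called lower only at 3 h in KO), Slc2a1 (lower at 8 h in KO, −0.66, adjusted p = 0.0275), Pfkfb2 (−0.82 at 3 h, adjusted p = 0.0166), Rpe (−0.67 at 3 h, adjusted p = 0.0357) and Slc16a3 (called lower at 8 h in KO, adjusted p = 0.0103). Slc16a3 was above the filter level on 2 of 3 KO 0 h arrays and on no KO 8 h array, its bound gives no fold, and its call was lost when signals under the level were raised to it. A call in 1 genotype alone does not show a difference between them, and the test of that difference called none of the 6. Leaving out 1 KO array ended some calls: Slc2a1 at 8 h without KO 8 h replicate 1 or 2 or KO 0 h replicate 2 or 3 (adjusted p 0.0548 to 0.128), Rpe without KO 0 h replicate 1 or 3 or KO 3 h replicate 1 or 2 (0.0695 to 0.213), and Pfkfb2 without KO 3 h replicate 2 or 3 (0.0519 and 0.0591). The same held for Hk1 and Aldoa at 3 h without KO 3 h replicate 3 (0.0542 and 0.068), Eno3 at 8 h without KO 8 h replicate 1 or KO 0 h replicate 3 (0.0914 and 0.115), Pfkl at 8 h without KO 8 h replicate 1 or KO 0 h replicate 2 or 3 (0.0691 to 0.148), and Rpia at 16 h without KO 0 h replicate 1 or 3 or KO 16 h replicate 1 (0.0695 to 0.185).

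Between the genotypes, 2 of the 34 genes differed when the 4 times were averaged, both higher in the arrays labelled KO, beside 1.21% of all genes called (0.733% higher, 0.475% lower). The count was 0 with the replicate number as a random block and 0 with the mean of each gene's probe sets. At single times limma called none of the 34, beside 0.0349%, 0.0559%, 0.0978% and 0.615% of all genes at 0, 3, 8 and 16 h. At an unadjusted p under 0.05 the members' counts were 1, 1, 6 and 2 of 34. The shares of all genes at that unadjusted threshold were 3.49%, 3.71%, 5.43% and 7.07%. The F-test of genotype by time called none of the 34 either, beside 0.014% of all genes. At an unadjusted p under 0.05 it held 1 of the 34, beside 2.8% of all genes. Among the cell type markers, limma called Cd22 (0.78, adjusted p = 5.89e-05), of 7 B cell markers, higher in KO over the 4 times. It also called Cd28 (0.72, adjusted p = 0.0169), of 6 T cell markers, and no other marker. At 8 h alone 1 B cell marker was called higher in KO. At 16 h alone 1 B cell, 1 T cell and 1 macrophage and monocyte marker were called higher and 1 NK cell marker lower. The part of these markers in the genotype differences was not tested.

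Aldoc in KO read 9.08, 8.78 and 8.38 at 0 h, 7.23, 7.12 and 6.96 at 3 h, 8.50, 8.85 and 9.22 at 8 h, and 8.66, 9.73 and 9.21 at 16 h. At 0, 8 and 16 h every KO array lay above every WT array given earlier, and at 3 h the genotypes overlapped. The averaged difference was 0.63 (1.54-fold, 95% interval 0.35 to 0.90, SE 0.134, adjusted p = 0.0147). At 8 and 16 h alone it was 1.01 and 1.02 (adjusted p = 0.253 and 0.101). The averaged call held with each array left out in turn (adjusted p 0.00357 to 0.0348). It was lost in 4 of 12 other settings (adjusted p over the 12 from 0.00616 to 0.697): with the mean of its 2 probe sets, with the replicate number as a random block, without the male-type arrays and without the 2 arrays of highest median, at differences from 0.56 to 0.64.

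Slc2a3 in KO read 11.32, 11.18 and 11.05 at 0 h, 10.61, 10.57 and 10.60 at 3 h, 10.06, 9.83 and 9.93 at 8 h, and 9.48, 9.30 and 9.57 at 16 h. The KO arrays lay above the WT arrays at 0 and 8 h; at 3 h the groups met at 10.57 and at 16 h they overlapped. The averaged difference was 0.34 (1.27-fold, 95% interval 0.18 to 0.51, SE 0.0804, adjusted p = 0.0291), and at 8 h it was 0.69 (adjusted p = 0.127). It fell in both genotypes all the same, in KO with differences of −0.59, −1.24 and −1.74. The averaged call was lost without any 1 of 9 arrays (WT 0 h replicate 3, WT 3 h replicates 1 and 3, WT 16 h replicates 2 and 3, KO replicate 1 at 0, 3 and 8 h, and KO 16 h replicate 3), with adjusted p from 0.0503 to 0.0631, and in 4 of 12 other settings (over the 12 from 0.0147 to 0.738): median scaling, the mean of its probe sets, the replicate number as a random block, and the fit without a trend.

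For most members the data bound the genotype difference. The 95% interval of the averaged difference lay within 0.5 log2 units of 0, a 1.41-fold change, for 25 of the 34 genes, and within 1 unit for 32; the exceptions were Eno2 and Slc16a3. At single times 14 to 17 of the 34 intervals lay within 0.5 and 25 to 30 within 1, so moderate differences at one time were not detectable with 3 arrays a group. Of the genes with large rises on stimulation, Hk2 had an averaged genotype difference of −0.04 (95% interval −0.25 to 0.17), Pfkp of −0.03 (−0.19 to 0.14) and Ldha of 0.10 (−0.01 to 0.21).

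**Figure D5:**
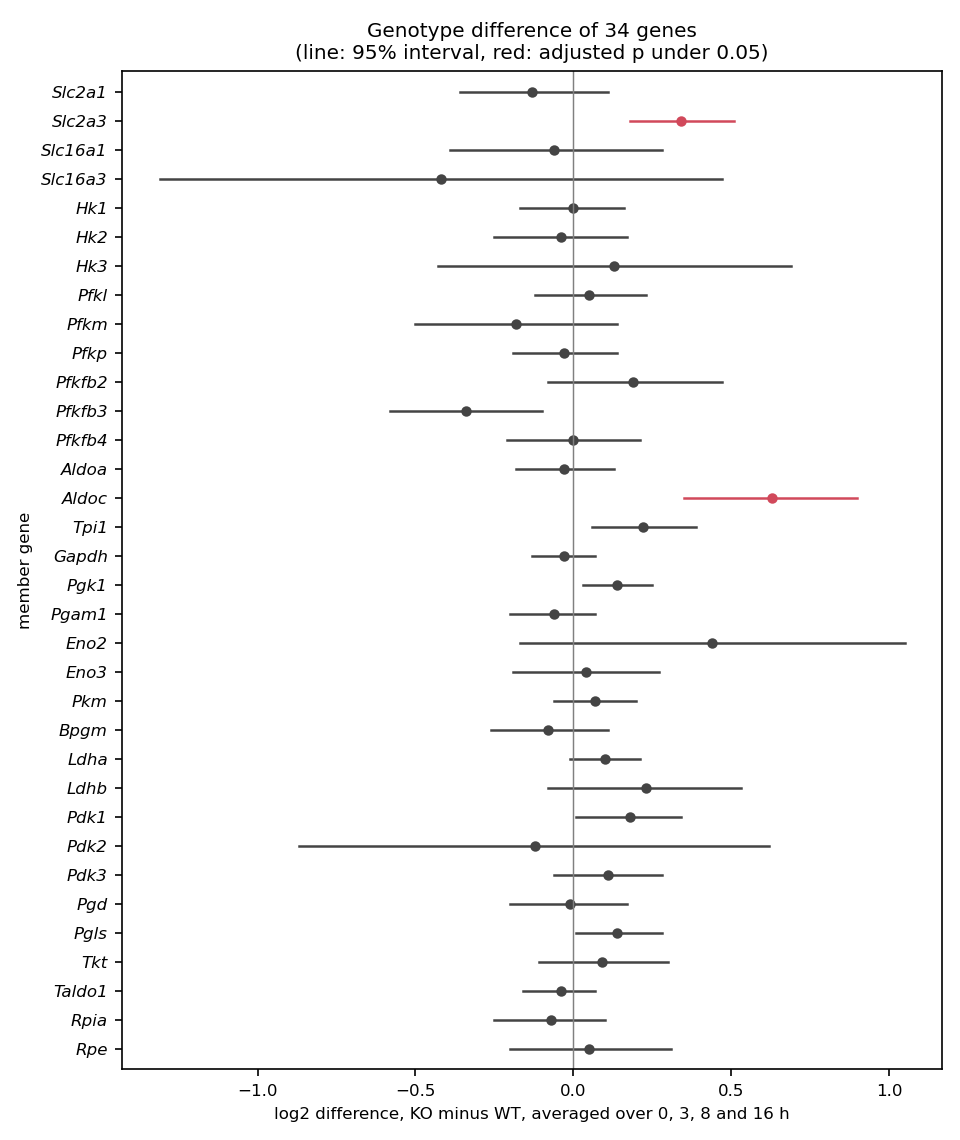
KO minus WT in log2 signal, averaged over the 4 times (horizontal axis), for each of the 34 genes, with the 95% interval from the fit over 24 arrays without a replicate block. Slc2a3 and Aldoc, in red, are the 2 genes called, at 0.34 and 0.63; most other intervals span 0.

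Among known regulators of the pathway, 18 of a list of 19 were tested. In WT 4 were higher and 8 lower at 3 h (all genes: 17.0% and 21.3%), 2 and 5 at 8 h (17.7% and 15.7%), and 1 and 8 at 16 h (20.9% and 18.5%). Myc, an activator of glycolytic genes, rose by 1.76 at 3 h (adjusted p = 3.6e-05), and its differences of 0.75 and 0.59 at 8 and 16 h did not pass the test. Txnip, which restrains glucose uptake, fell, with differences of −1.98, −2.40 and −3.06. Mlxip, a glucose-sensing factor that activates Txnip, fell (−0.56, −1.09 and −1.41). Mxd4, a partner of Max that opposes Myc, fell (−2.99, −2.27 and −1.49), and so did Foxo1 (−1.46, −1.79 and −2.23).

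Hif1a, the oxygen-regulated activator of glycolytic genes, differed by 0.02 and −0.22 and fell by 0.49 at 16 h (adjusted p = 0.00744). Its partner Arnt fell by 1.13 at 3 h (adjusted p = 0.0203), and was not called later; its KO minus WT difference over the 4 times was −0.85 (adjusted p = 0.0205). Tigar, which lowers fructose 2,6-bisphosphate, differed by 0.27, 0.41 and 0.44 and was not called. On its brightest probe set, Nfatc1 itself rose in WT by 1.30 and 0.53 at 3 and 8 h and differed by −0.05 at 16 h. Its 4 other probe sets stood higher at WT 16 h than at 0 h. They read 11.82 to 12.12 from 10.76 to 10.95, 10.39 to 10.65 from 9.43 to 9.80, and 9.23 to 9.56 from 8.64 to 9.09. The dimmest read 7.85 to 9.04 from 7.25 to 7.92, with overlap. The course of Nfatc1 at 16 h thus depends on the probe set.

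For the branches fed by glycolysis, the shares over all genes are again 17.0% higher and 21.3% lower at 3 h, 17.7% and 15.7% at 8 h, and 20.9% and 18.5% at 16 h. Of 12 genes of serine, hexosamine and glycerol synthesis, 8 were higher at each time in WT, with 1, 2 and 2 lower; Mthfd2 and Shmt2, of mitochondrial one-carbon metabolism, rose by 2.81 and 1.86 at 3 h, and Psat1, of serine synthesis, by 1.72. The glycerol phosphate gene Gpd1l fell (−1.80, −1.47 and −2.19). Of 10 genes tested beside the pentose phosphate pathway, 2 were higher and 3 lower at 3 h, and 3 higher and 2 lower at 16 h, shares near those over all genes. Ppat, the first enzyme of purine synthesis, rose by 2.22, 1.39 and 1.64, and of the 2 ribose phosphate kinases Prps1 rose by 1.31 and Prps2 fell by 1.62 at 3 h.

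Of 9 genes for pyruvate entry into mitochondria, 5, 5 and 6 were higher at the 3 times and none lower; Mpc1, a subunit of the pyruvate carrier, rose by 1.31, 1.68 and 2.15. Of 22 genes of the citric acid cycle and its shuttles, 8 were higher and 4 lower at 3 h, 15 and 0 at 8 h, and 20 and 1 at 16 h. Got2 rose by 0.56, 1.02 and 1.45, Idh3a by 1.25, 1.12 and 1.34, and Idh1 fell by 1.34 at 16 h.

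Of 18 further isoenzymes and transporters tested, 4 were higher and 4 lower at 3 h (all genes: 17.0% and 21.3%) and 4 and 2 at 16 h (20.9% and 18.5%), near the shares over all genes. Bsg, the chaperone that brings MCT1 to the membrane, rose by 0.70, 1.18 and 1.60. Slc2a6, a sugar transporter of internal membranes, rose by 0.62, 1.81 and 2.29, in contrast to Slc2a3 and Slc2a1 above. Slc16a7 (MCT2) was called lower at 3 h (adjusted p = 0.000441), where its mean of 3.49 lay under every array's filter level, so the size of the fall was not measured. Of 15 genes of gluconeogenesis and glycogen, 1 was higher and 6 lower at 3 h, and 4 and 4 at 16 h. Averaged over the 4 times, none of these lists but the regulators had a gene called between the genotypes, beside the background of 1.21%.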

How the data were processed

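RNA from 24 samples of purified splenic B cells was hybridised to Affymetrix mouse arrays. The deposited values are log2 signals made by the authors with MAS5, per the submitters' processing notes; the trimmed mean of the linear signal was 500 on every array, and no further step is given in the sources used here. Of 45101 probe sets, 34958 had 1 gene symbol in the probe table, 932 several, and 9211 were not listed.

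Probe sets over their array's 40th percentile on at least 3 arrays entered, and the brightest per gene was used (Gapdh by its 5′ control probe set), giving 14319 genes. limma 3.58.1 fitted 1 mean per group over the 24 arrays (eBayes with trend, 16 residual degrees of freedom), with Benjamini-Hochberg adjustment over all genes. The labels state no pairing of replicate numbers across groups, so no block was used. A simulation for WT 16 h minus 0 h over 14319 genes changed 50 genes each by 1.5-, 2-, 4- and 8-fold. The fit called 24 of 50 genes changed 2-fold, 38 of 50 changed 4-fold, and 3 of 14119 unchanged genes. Noise was drawn independently for each array, and far fewer genes changed than the 39.4% called in the data. The simulation therefore checks that the fit runs as intended and gives neither the power nor the error rate of these contrasts. Nothing says how the biological replicates were drawn from mice, so p-values measure the spread between these samples.

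The members, the lists of regulators, branches and cell type markers, and the tests were chosen with earlier results of these data known. Values on every array are given for the 3 called genes of largest rise and fall at each time, genes called between genotypes, and isoenzyme families. The other lists name up to 3 called genes each way, and fixed regulators. Alternatives tried were the scaling, the filter, the probe set rule, the spread estimate, a floor, replicate blocks and each array left out; leaving out the male-type arrays, leaving out the 2 arrays of highest median and testing every probe set were added after the data were seen. Python 3.11.15, pandas 2.3.3 and matplotlib 3.10.9 were used for tables and figures.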

Additional observations from a re-analysis of the deposited data

How the results depend on the processing

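Of 147 calls of single genes in 9 comparisons, 118 held when each array was scaled to its median and 133 to 147 under the other settings (142 of 142 testable under a filter at the 60th percentile and 137 of 145 with the compared groups alone). The exceptions in direction were those of Pfkl at 8 h with the mean of its probe sets, −0.06 in WT and −0.02 in KO. Scaling each array to its median left 4 members called from WT 3 to 8 h, 1 from WT 8 to 16 h and 1 between genotypes averaged over time. The averaged count was 0 with the mean of probe sets, 0 with a random replicate block, 1 without the trend and 1 without the male-type arrays, which also left 3 from WT 8 to 16 h. A fixed replicate block called 1 member between genotypes at 16 h, Aldoc, and kept the 147 calls; a random block (correlation 0.208) kept 145 and ended both genotype calls. The labels do not say that the numbers pair the samples. In deviations from the group means, the 36 pairs of arrays with the same number and genotype correlated at 0.02 to 0.374 (median 0.094, 16 over 0.1). The 72 of the same genotype with different numbers correlated at −0.342 to 0.0989 (none over 0.1). Within its own genotype, each of the 24 arrays correlated best with one of its own number, a hint from the data, not the design. Across genotypes, the 48 pairs with the same number correlated at −0.0405 to 0.222 (11 over 0.1). The 96 with different numbers correlated at −0.182 to 0.134 (2 over 0.1). Among those 96, WT 16 h replicate 1 and KO 8 h replicate 2 correlated at 0.134, above any pair of that WT array with its own number. With each array left out, the counts ranged from 17 to 21 (WT 3 h), 18 to 21 (WT 8 h), 20 to 22 (WT 16 h), 11 to 16 (WT 3 to 8 h), 5 to 7 (WT 8 to 16 h), 20 to 23 (KO 3 h), 18 to 22 (KO 8 h) and 19 to 21 (KO 16 h); between genotypes from 0 to 0 at 0 and 3 h, 0 to 1 at 8 and at 16 h, 1 to 2 averaged, and 0 to 0 for the F-test. The averaged contrast and the F-test have no version with the compared groups alone, since they use all 8. Dim signals limit Eno2, Pdk2, Hk3 and Slc16a3.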
